A study of Mus musculus with 6 samples.

Results

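Meningeal and fibroblast matrix genes were examined in the hippocampus of mice that lack inhibitor-1 and of wild-type mice. The set is a list of 32 genes given by symbol, and each was read through every probe set that the array's annotation assigns to that symbol alone. All 32 genes had such a probe set, 59 probe sets in all of 45101 on the array. The study measured total RNA of mouse hippocampus on 6 one-colour Affymetrix arrays, 3 labelled wild-type and 3 labelled inhibitor-1 knockout. Inhibitor-1, encoded by Ppp1r1a, blocks protein phosphatase 1 once protein kinase A has phosphorylated it. The labels name genotype, tissue and a replicate number, and give no strain, age, sex, targeting construct or pairing. They do not say that each array holds RNA of a separate animal, so p-values measure the spread between arrays, which may be technical.

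The meninges are the connective tissue sheets around the brain, and the innermost of them, the pia, follows the surface of the hippocampus and enters it along blood vessels. Their fibroblasts secrete collagen, which folds into triple helices and is trimmed, assembled and cross-linked outside the cell, together with small proteoglycans that bind to the fibrils. They also release growth factors and retinoic acid, and carry transporters that move organic ions and neurotransmitters between cerebrospinal fluid and blood. In RNA of whole tissue, fewer cells of a type and less RNA per cell cannot be told apart.

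Values are deposited intensities on a linear scale, and changes are differences of log2(intensity + 16), knockout minus wild type, with the standard error (SE) of the limma fit. That scale understates the change of dim probe sets. The dimmest 40% of probe sets, by their mean log2 level, were not tested, and 52 of the 59 probe sets and 31 of the 32 genes passed that filter. Each gene is represented by its brightest probe set unless another is named. The targeted gene went with the labels: Ppp1r1a read 9061, 8370.3 and 10345 on the wild-type arrays and 272.5, 248.5 and 347 on the knockout arrays, and fell by 4.93 on the log2 scale (limma adjusted p = 3.58e-07). All 12 listed markers of hippocampal neurons passed the filter. So did all 12 astrocyte markers and all 15 endothelial markers with a probe set, so passing says little about the tissue. Ogn and Col1a2, the markers of the set, lay at the 73.1 and 73.0 percentile of mean level over all probe sets, so both were among the brighter probe sets of these hippocampal arrays.

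To show where transcription of these genes begins, the 120 bases before the annotated start are given for Ogn and for the 3 genes with 1 start in the table whose knockout values all lay above the wild-type values. They come from RefSeq promoters on build GRCm38.p6, which held 22 of the 32 genes with 30 starts, and are written 5′ to 3′ on the gene's strand, which is plus for all 4. Capitals mark matches on either strand to the TATA box (TATAAA), the CCAAT box (CCAAT), the GC box (GGGCGG) or the AP-1 site (TGANTCA).
Ogn, chr13:49607895-49608014: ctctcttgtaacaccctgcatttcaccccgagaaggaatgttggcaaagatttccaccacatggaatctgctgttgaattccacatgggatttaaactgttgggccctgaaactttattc
Col1a2, chr6:4505498-4505617: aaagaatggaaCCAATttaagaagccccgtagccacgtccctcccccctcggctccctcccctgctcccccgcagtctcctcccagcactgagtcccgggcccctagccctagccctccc
Foxc1, chr13:31806526-31806645: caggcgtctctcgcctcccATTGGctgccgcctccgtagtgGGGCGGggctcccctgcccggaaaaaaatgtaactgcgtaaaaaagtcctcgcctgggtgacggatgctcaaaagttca
Slc22a6, chr19:8617876-8617995: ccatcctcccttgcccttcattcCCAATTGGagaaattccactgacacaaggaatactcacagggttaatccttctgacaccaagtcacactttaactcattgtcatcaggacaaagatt

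The windows were unlike in base composition. G and C made up 44.2% of the Ogn window, 65.8% of that of Col1a2, 59.2% of that of Foxc1 and 43.3% of that of Slc22a6, against a median of 54.2% over all 32851 promoters in the table and 60% over the 30 starts of the set. The CCAAT box was present in 20% of the 30 windows and in 21.3% of all promoters of the same length. The GC box was in 36.7% and 26.5%, the TATA box in 3.33% and 6.34%, and the AP-1 site in 10% and 3.41%. In Slc22a6 the CCAAT matches on the 2 strands overlap in one palindrome. No letters searched were common to all the windows shown, and a match describes the letters only.

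As a group these genes had higher values in knockout, but 0 of 31 passed the test. At a limma adjusted p under 0.05, 0.0111% of all 26999 probe sets were called and 0 of the 52 probe sets of the set were (lowest limma adjusted p = 0.988). The log2 change was above 0 in 28 of 31 genes, where 50.1% of all 12493 genes tested lay above 0. The median log2 change was 0.35, with quartiles of 0.12 and 0.50, against 0.0003 over all genes tested, with quartiles of -0.10 and 0.11. These genes were measured less precisely, with a median SE of 0.21 against 0.14 over all genes tested. At an unadjusted limma p under 0.05, 8 genes were higher, beside 2.44% of all genes, and 0 were lower, beside 2.31%. All 3 knockout values lay above all 3 wild-type values in 7 genes, beside 5.34% of all genes, and below them in 0, beside 5.12%. The 8 of 31 and 7 of 31 are 25.8% and 22.6%. The genes were chosen with earlier results of these data known, so these counts and shares describe the set and do not test it. Knockout replicate 1 was the lowest knockout array in 30 of 31, so the genes are not 31 separate observations.

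The counts moved with single arrays. Leaving out knockout replicate 1, the number at an unadjusted limma p under 0.05 was 15, and the share of all genes at that threshold and higher grew as well, to 4.91%. Without knockout replicate 2 or 3 the number was 2 and 3, beside 1.59% of all genes in each case, and without wild type replicate 1 it was 5, beside 2.72%. The number of genes with no overlap was 20 without knockout replicate 1, beside 14.1% of all genes in that smaller comparison, and 12 without wild type replicate 2, beside 9.46%. The median log2 change was 0.51 without knockout replicate 1 and at least 0.25 without any other single array.

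**Figure D1:**
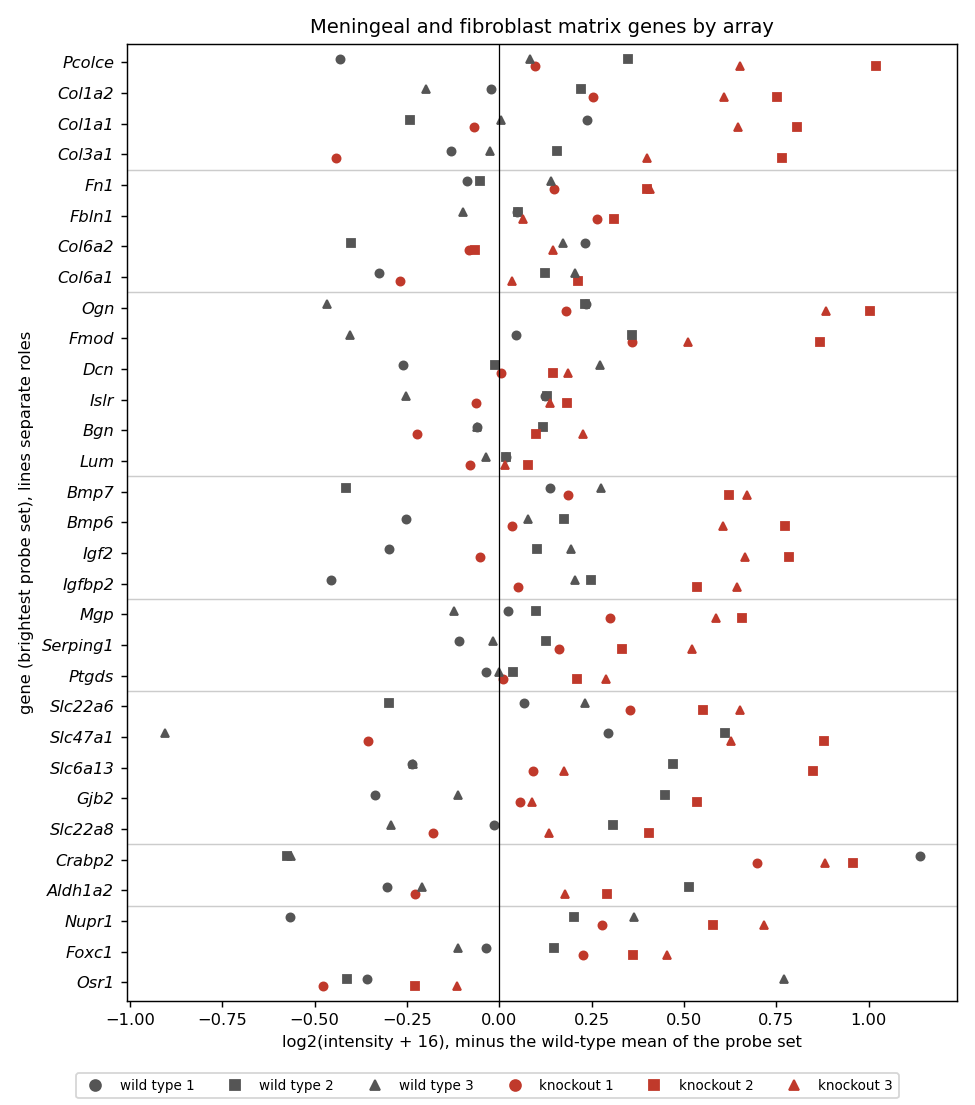
Each point is 1 array's log2(intensity + 16) for the brightest probe set of a gene, minus the wild-type mean of that probe set, for the 31 genes tested (grey wild type, red knockout, shape by replicate number). Knockout replicates 2 and 3 lie to the right of 0 in most rows, and knockout replicate 1 is the lowest knockout point in 30 of 31.

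Fibrillar collagen genes and their processing factor had changes above 0 in 4 of 4 cases, with a median of 0.50. At an unadjusted limma p under 0.05, 2 of the 4 were higher, beside 2.44% of all genes. Col1a2 encodes the second chain of type I collagen. Its intensity was 1968, 2333 and 1740 in wild type replicates 1 to 3 and 2387, 3375 and 3058 in knockout, so the groups did not overlap, though knockout replicate 1 lay just above the highest wild-type array. The means were 2014 ± 299 and 2940 ± 504 (SD, n = 3), a log2 change of 0.54 (SE 0.17, adjusted p = 0.988 by limma). A dimmer Col1a2 probe set had a change of 0.28 (SE 0.27).

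Pcolce encodes the procollagen C-proteinase enhancer, which speeds the trimming of fibrillar procollagen. Its intensity was 1516, 2616 and 2173 in wild type and 2193, 4170 and 3230 in knockout. Knockout replicates 2 and 3 were above all wild-type arrays and knockout replicate 1 was among them. Pcolce had a log2 change of 0.59 (SE 0.24, adjusted p = 0.988 by limma), and 0.48 (SE 0.24) at its other probe set. Col1a1, the partner chain of Col1a2, had a log2 change of 0.46 (SE 0.29) and Col3a1, the type III chain of soft connective tissue, 0.24 (SE 0.29). In both, knockout replicates 2 and 3 lay above the wild-type range while knockout replicate 1 did not. Without knockout replicate 2 the Col3a1 change was -0.02.

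The other structural proteins were split. Fn1 encodes fibronectin, a glycoprotein that links cells to the matrix. Its intensity was 4418, 4526 and 5175 in wild type and 5209, 6201 and 6232 in knockout, without overlap but with knockout replicate 1 close to the highest wild-type array. The log2 change was 0.32 (SE 0.11, adjusted p = 0.988 by limma). A dim Fn1 probe set had a change of -0.10 (SE 0.34).

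Fbln1, fibulin-1 of basement membranes and elastic fibres, measured 2432, 2438 and 2199.8 in wild type and 2832, 2924 and 2459 in knockout. The groups did not overlap, with knockout replicate 3 nearest to wild type, and the log2 change was 0.21 (SE 0.13, adjusted p = 0.988 by limma). The changes of its other probe sets were 0.26 (SE 0.21) and 0.26 (SE 0.39). Fbln1 is the only gene of the set on chromosome 15, which also carries Ppp1r1a, with 160 tested genes between them. Col6a1 and Col6a2, chains of the beaded-filament collagen VI and neighbours on chromosome 10, had changes of -0.01 (SE 0.17) and -0.0002 (SE 0.21), and both changed sign in several of the alternative settings.

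**Figure D2:**
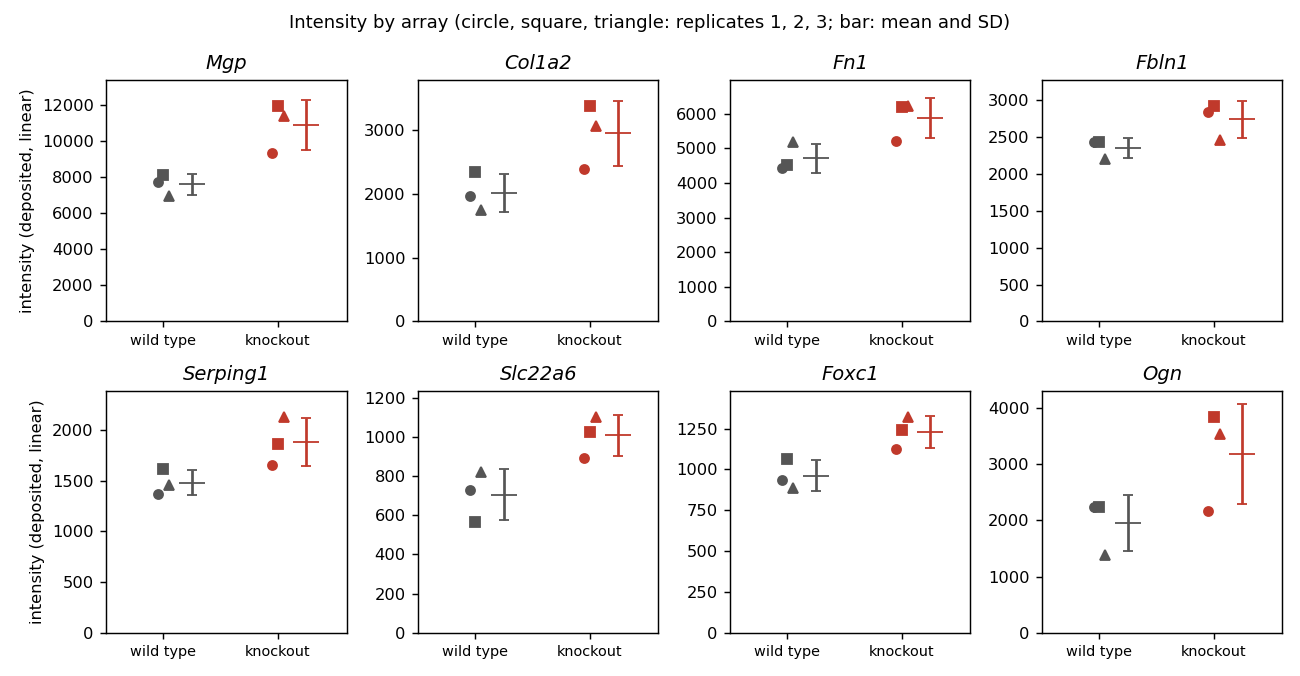
Deposited intensity on a linear axis from 0 for the brightest probe set of 8 genes (3 arrays a group, points by replicate, bar at the mean with its SD). In Mgp, Col1a2, Fn1, Fbln1, Serping1, Slc22a6 and Foxc1 the red points all lie above the grey ones, and in Ogn knockout replicate 1 falls among the wild-type arrays.

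Small leucine-rich proteoglycans coat collagen fibrils and set their spacing. All 6 of these genes and relatives had changes above 0, with a median of 0.10, since 2 stood out and 4 lay close to 0. Ogn encodes osteoglycin, a marker of meningeal fibroblasts. Its intensity was 2246, 2245 and 1376 in wild type and 2163, 3841 and 3536 in knockout. Knockout replicates 2 and 3 were high, and knockout replicate 1 was below 2 of the wild-type arrays. The difference was 0.69 on the log2 scale (SE 0.24, adjusted p = 0.988 by limma), and without knockout replicate 1 it was 0.94. The second Ogn probe set read 1490.4, 1863 and 1162 in wild type and 2007.5, 2705 and 2642 in knockout. There the groups did not overlap, with a log2 change of 0.71 (SE 0.20, adjusted p = 0.988 by limma).

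Fmod encodes fibromodulin, which binds type I collagen. Its brightest probe set read 2839, 3537 and 2074 in wild type and 3532, 5036 and 3926 in knockout, with knockout replicate 1 level with wild type replicate 2. The log2 change was 0.58 (SE 0.19, adjusted p = 0.988 by limma). The other 5 tested Fmod probe sets had changes of 0.11 to 0.48, and in 2 of those 5 the groups did not overlap. Dcn, decorin, had a change of 0.11 (SE 0.12), Islr, an immunoglobulin and leucine-rich repeat protein, 0.09 (SE 0.14), and Bgn, biglycan, 0.03 (SE 0.15). Lum, lumican, which lies next to Dcn on chromosome 10, was almost level, at 1098 ± 24.1 in wild type and 1102 ± 61.0 in knockout (SD, n = 3). Bgn read differently by probe set: the dimmest had a change of 0.63 (SE 0.21, adjusted p = 0.988 by limma), without overlap, and the 2 brighter ones by 0.03 and 0.09.

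Growth factors and a binding protein were above 0 in 4 of 4 cases, with a median of 0.47, and in each of them knockout replicates 2 and 3 lay above all wild-type arrays while knockout replicate 1 did not. Igf2, the insulin-like growth factor that leptomeninges and choroid plexus release into cerebrospinal fluid, read 9198, 12141 and 12951 in wild type and 10914, 19501 and 17929 in knockout. Its log2 change was 0.47 (SE 0.19, adjusted p = 0.988 by limma). A dim Igf2 probe set had a change of 0.73 (SE 0.43), without overlap. Igfbp2, which binds insulin-like growth factors, had a change of 0.41 (SE 0.19). Bmp6 and Bmp7, ligands of the bone morphogenetic protein family, had changes of 0.47 (SE 0.22) and 0.49 (SE 0.31). The other Bmp7 probe sets had changes of -0.02 (SE 0.36) and 1.05 (SE 0.62).

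The lowest p of the set belonged to a secreted protein. Mgp encodes matrix Gla protein, an inhibitor of calcification in vessels and cartilage. Its intensity was 7718, 8133 and 6964 in wild type and 9336, 11976 and 11396 in knockout. The lowest knockout array was thus clear of the highest wild-type one. The means were 7605 ± 592 and 10903 ± 1387 (SD, n = 3), a log2 change of 0.51 (SE 0.11, adjusted p = 0.988 by limma).

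Serping1, the C1 inhibitor of the complement cascade, measured 1366, 1611 and 1457 in wild type and 1650.5, 1860 and 2126 in knockout, without overlap and with knockout replicate 1 just above wild type replicate 2. Its log2 change was 0.34 (SE 0.17, adjusted p = 0.988 by limma). Ptgds encodes prostaglandin D synthase, a protein of the meninges, choroid plexus and oligodendrocytes that is abundant in cerebrospinal fluid. Its brightest probe set read 120982, 127053 and 123886 in wild type and 124885, 143265 and 151311 in knockout, and there knockout replicate 1 was within the wild-type range. That amounts to a log2 change of 0.17 (SE 0.07, adjusted p = 0.988 by limma). At the second probe set the groups did not overlap and the change was 0.29 (SE 0.08, adjusted p = 0.988 by limma). Both lie above the 99.8 percentile of mean level.

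Transporters and the gap junction gene were above 0 in 5 of 5 cases, with a median of 0.37. Slc22a6, an organic anion transporter, read 730, 563 and 819 in wild type and 894, 1026.5 and 1102 in knockout. These groups did not overlap, and the log2 change was 0.52 (SE 0.24, adjusted p = 0.988 by limma). Slc22a8, its neighbour on chromosome 19 and a related anion transporter, overlapped between the groups with a change of 0.12 (SE 0.21). Slc6a13, a GABA and taurine transporter, had a change of 0.37 (SE 0.26), Slc47a1, an exporter of organic cations, 0.38 (SE 0.47), and Gjb2, connexin 26, 0.23 (SE 0.22). The Slc47a1 change was -0.07 without wild type replicate 3, its lowest array at 213.6 against 512 and 641 in the other two.

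The retinoid genes were uneven. Crabp2, which carries retinoic acid to the nucleus, had the highest change of the set, 0.85, but an SE of 0.46. Its wild-type arrays were spread, at 759, 220.6 and 222.5, and the knockout arrays, at 555, 668 and 633, lay inside that range. Aldh1a2, the enzyme that makes retinoic acid in the meninges, had a change of 0.08 (SE 0.27).

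Among regulators, Foxc1, a forkhead factor needed for meningeal development, read 936, 1066 and 886 in wild type and 1125, 1239 and 1321 in knockout. The groups did not overlap, and the log2 change was 0.35 (SE 0.20, adjusted p = 0.988 by limma). Nupr1, a stress-induced nuclear protein, had a change of 0.52 (SE 0.27) at one probe set and -0.16 (SE 0.25) at the other. Osr1, a zinc finger factor of mesenchyme, had the lowest change, -0.27 (SE 0.39), with wild type replicate 3 at 863 and the other 5 arrays at 354 to 459. Without that array the change was 0.11. Tbx18, a T-box factor of pericytes and mesenchyme, did not pass the filter. One of its probe sets read 201, 102 and 265 in wild type and 268, 441 and 496 in knockout, and the other read 80.7, 53.9 and 307.5 against 309.7, 299.7 and 505. The first did not overlap between groups and the second did.

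Of the 14 genes with over 1 tested probe set, 9 had probe sets of one sign. The exceptions were Bmp7, Col6a2, Fn1, Nupr1 and Slc22a8. Over all 52 tested probe sets, 45 had a change above 0 and 7 below it, and in 13 the knockout arrays all lay above the wild-type arrays. Several of these probe sets belong to one gene, and the shares over all probe sets were not counted, so these counts have no baseline. By gene, 50.1% of all genes lay above 0, and 5.34% were higher in knockout without overlap. The sign of the change was kept in every one of the 17 alternative settings for 20 of the 31 genes, wherever they were tested.

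**Figure D3:**
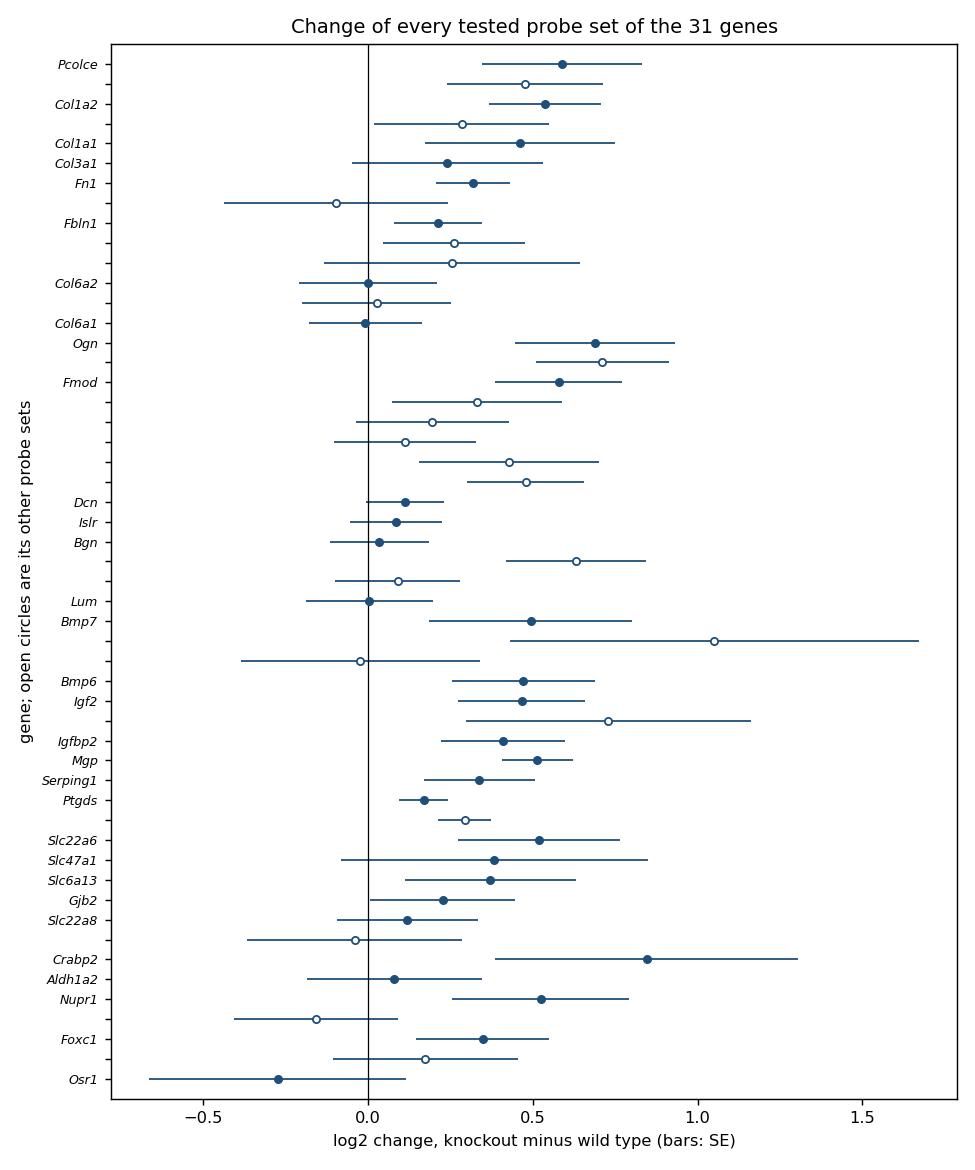
Log2 change, knockout minus wild type, with its SE for the 52 tested probe sets, grouped by gene in the order of the plot of levels by array (filled circle the brightest probe set of a gene, open circles its others). Most points lie to the right of 0, and the widest bars belong to dim probe sets such as those of Bmp7, Crabp2 and Slc47a1.

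Spread within the knockout group was wider than the difference between groups. The mean level of the 31 genes, as the log2 distance of each gene from its own mean over 6 arrays, was -0.21, -0.07 and -0.19 in wild type replicates 1 to 3 and -0.12, 0.35 and 0.25 in knockout. Knockout replicates 2 and 3 were thus above every wild-type array, and knockout replicate 1 was below wild type replicate 2. Knockout replicate 1 had the lowest of the 3 knockout values in 30 of 31 genes (96.8%), all but Fbln1, while it was lowest in 34.7% of all genes tested. Wild type replicate 1 was the lowest wild-type array in 14 of 31 (45.2%), against 33.7% of all genes. With both arrays numbered 1 left out, the median log2 change was 0.37, and 21 of 31 genes had no overlap, beside 20.7% of all genes in that comparison of 2 arrays against 2.

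Choroid plexus and ependymal markers varied over the arrays in a like way. Their mean level was -0.73, 0.10 and 0.05 in wild type and -0.29, 0.48 and 0.39 in knockout, with a range within groups of 0.83 and 0.77 beside a difference of 0.39 between them. Knockout replicate 1 was the lowest knockout array in 20 of 21 of these genes and wild type replicate 1 the lowest wild-type array in 17 of 21. Of the 21 tested, 17 had a change above 0 (median 0.51), 4 were higher at an unadjusted limma p under 0.05 and 0 were lower. Over all genes, 2.44% were higher at that threshold and 5.34% were higher without overlap. Of the 21 markers, 0 passed the test and 0 were free of overlap. The ependymal markers Foxj1, Rsph1, Tmem212, Cfap126 and Ccdc153 had changes of 0.14, 0.14, -0.001, -0.06 and -0.21. The list median ran from 0.17 to 0.86 leaving out 1 array. None of the 21 markers was at 0 on any array. Their part in the values of the meningeal genes was not tested. The ranges differ: for the meningeal and fibroblast genes the wild-type arrays spanned 0.15 and the knockout arrays 0.47 beside a difference of 0.32. Ttr, the transthyretin of choroid plexus, had a change of -0.02 (SE 0.10) and was 1 of the 4 choroid plexus and ependymal markers below 0. Its level was at the 99.996 percentile, and its value in wild type replicate 3, 242763, was the highest on that array. Whether so bright a probe set can show a change was not tested.

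Mural cells, the smooth muscle and pericytes on vessels that fibroblasts adjoin, had levels of -0.13, 0.10 and -0.22 in wild type and -0.38, 0.40 and 0.22 in knockout. Of 11 mural markers 8 had a change above 0 (median 0.10), and Tagln, a smooth muscle actin-binding protein, had the lowest p (log2 change 0.91, SE 0.38, limma adjusted p = 0.988). In 9 of 11 mural markers knockout replicate 1 was the lowest knockout array, beside 34.7% of all genes. Endothelial markers shared this in part. Knockout replicate 1 was the lowest knockout array in 10 of 15 of these genes and wild type replicate 1 the lowest wild-type array in 8 of 15. Their levels were -0.13, 0.12 and 0.04 in wild type and -0.13, -0.03 and 0.12 in knockout, with a median change of 0.05 over 15 genes.

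**Figure D4:**
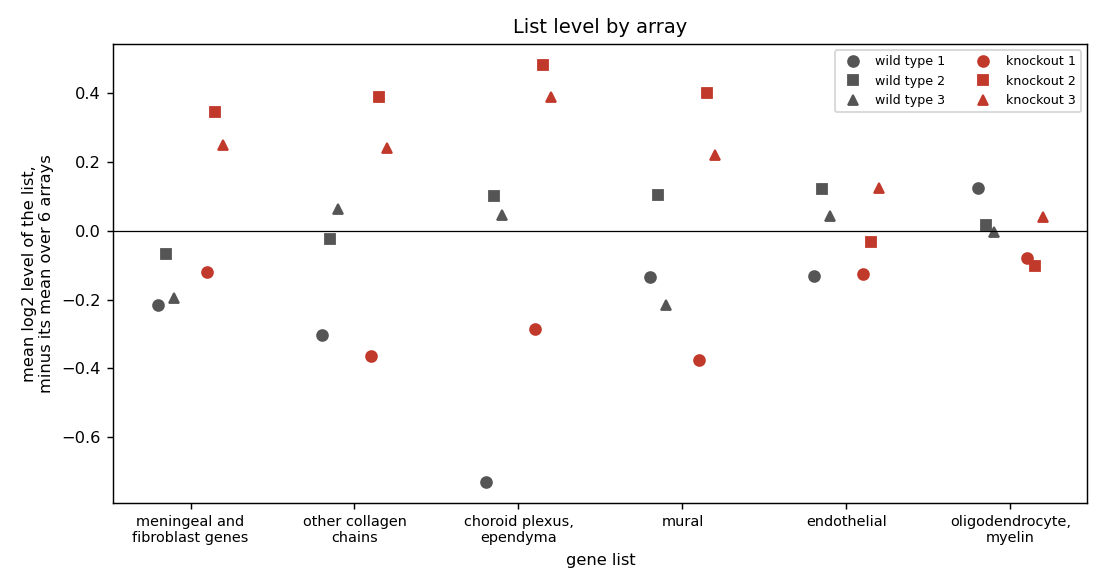
Mean log2 level of 6 gene lists on each array, as the distance from the list's mean over the 6 arrays (grey wild type, red knockout, shape by replicate number). Knockout replicate 1 lies at -0.12 for the meningeal and fibroblast genes and -0.29 for choroid plexus, under the 2 other knockout arrays, while the endothelial and oligodendrocyte lists span a narrower range.

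Other genes of matrix production were then read from lists that held none of the 32, and 0 of their members passed the test. Of 18 other collagen chains 12 had a change above 0 (median 0.11). Their level in knockout replicate 1, -0.37, was the lowest of the 6 arrays, and it was the lowest knockout array in 15 of 18. At an unadjusted limma p under 0.05, 1 of the 18 was higher, beside 2.44% of all genes, and 0 were lower, beside 2.31%. That gene was Col27a1, a fibrillar chain of cartilage (change 1.15, SE 0.51, adjusted p = 0.988 by limma). Of 14 enzymes that fold, modify and cross-link collagen 9 lay above 0 (median 0.07), with P4ha1, a prolyl hydroxylase subunit, at 0.36 (SE 0.15, adjusted p = 0.988 by limma). Knockout replicate 1 was the lowest knockout array in 17 of 26 other matrix proteins. Of these 26, 16 lay above 0 (median 0.10). At an unadjusted limma p under 0.05, 4 were higher and 1 lower, beside 2.44% and 2.31% of all genes. Without overlap, 5 were above and 3 below, beside 5.34% and 5.12% of all genes. Lamb1, a laminin chain of basement membranes, had a change of 0.42 (SE 0.13, adjusted p = 0.988 by limma), and Efemp1, fibulin-3, one of 0.48 (SE 0.19, adjusted p = 0.988 by limma). Ltbp1, which holds latent TGF-beta in the matrix, was dim and had one of -1.28 (SE 0.46, adjusted p = 0.988 by limma).

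The lists of partners of the signalling genes had medians close to 0, with single genes further out on both sides. Of 25 IGF and BMP receptors, binding proteins, inhibitors and effectors 15 had a change above 0 (median 0.02), and Igfbp4 had one of -0.19 (SE 0.08, adjusted p = 0.988 by limma). Of 12 genes of retinoic acid synthesis, transport and reception 10 lay above 0 (median 0.05), and 0 had an unadjusted limma p under 0.05. Of 21 other regulators and transporters of meninges and mesenchyme 14 lay above 0 (median 0.09), again with 0 at that threshold. The median of the 32-gene set, 0.35, was above those of these matrix and signalling lists and below the 0.51 of the choroid plexus list. The differences between lists were not tested.

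**Figure D5:**
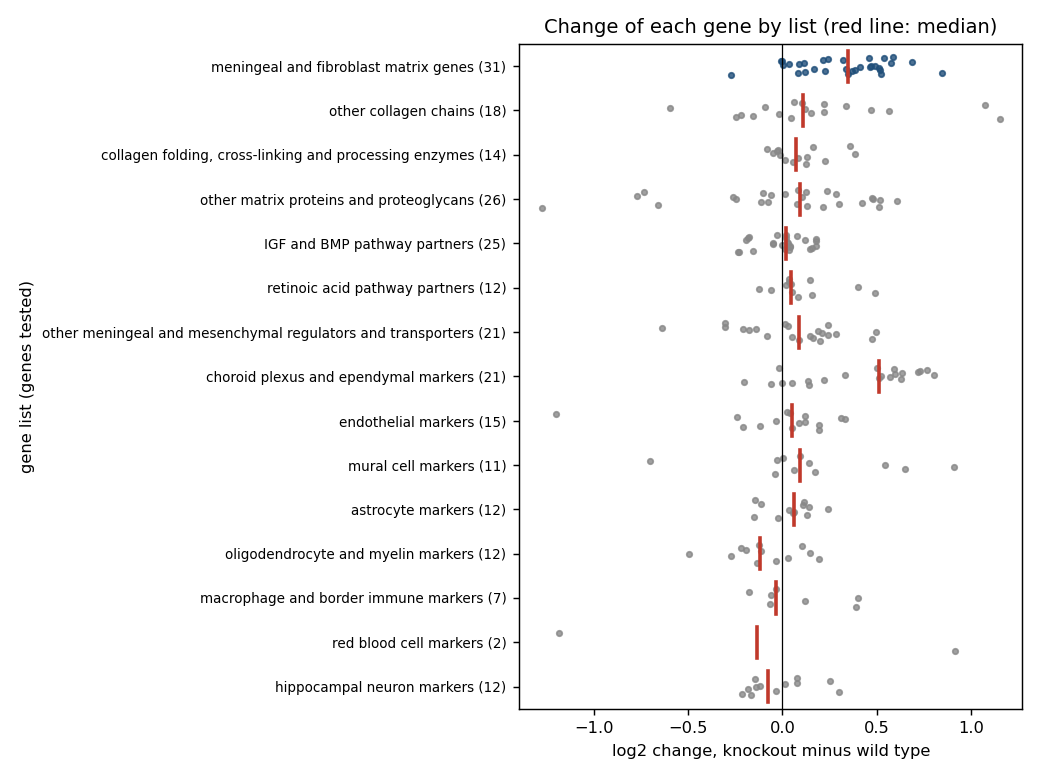
Log2 change, knockout minus wild type, of every tested gene of each list (point, brightest probe set), with the median of the list as a red line and the number of genes tested in brackets. The meningeal and fibroblast genes have a median of 0.35 and the choroid plexus and ependymal markers one of 0.51, and the other medians lie between -0.14 and 0.11.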

How the data were processed

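The 6 hippocampal RNA samples, 3 a genotype, were each hybridised to 1 array. The deposited values are probe set intensities on a linear scale. The program that made them was not given in the sources used here. After trimming 2% of values from both ends, every array had a mean of 2500, so they had been scaled before deposit and were used as they stood. Median intensity was 574, 621 and 642 in wild type replicates 1 to 3 and 542, 664 and 666 in knockout. Knockout replicate 1 had the lowest median of the 6 arrays. For the genes of the set it was low among the knockout arrays only. Their level there was -0.12, beside -0.21 and -0.19 in wild type replicates 1 and 3. A link between array median and the level of the set was not tested. No detection calls were used, and the number of arrays limits the precision.

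The platform annotation gave 1 symbol for 34958 probe sets, several for 932 and none for 9211. Genes were matched by gene ID to a RefSeq table of GRCm38.p6 (32 of 32), used for names and gene order only. Values were taken as log2(intensity + 16). The 64 control probe sets and the dimmest 40% (mean log2 value under 8.44) were left out. limma 3.58.1 in R 4.3.3 compared the groups (a two-sided moderated test on group alone, its variance prior trended on level), with Benjamini-Hochberg adjustment over 26999 probe sets. The fit was also run on simulated data, whose recovery is not reported here. Noise was drawn there separately for each probe set and array, so that run held no shift shared by many genes on an array.

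The genes, the lists and the alternatives were chosen with earlier results of these data known. Per-array values are given for Ogn, Col1a2 and genes without overlap, with an unadjusted p under 0.05, or with probe sets of opposite sign of which one had such a p; of other lists, up to 3 genes of lowest p under 0.05 are named. Bgn, Crabp2, Lum, Osr1, Slc47a1, Tbx18, Ttr and the ependymal markers Foxj1, Rsph1, Tmem212, Cfap126 and Ccdc153 were singled out after their values were seen. Alternatives were pseudocounts of 1 and 64, no filter or a filter at 60%, quantile normalization, median centring, no intensity trend, array weights, a replicate block, each array left out, both replicates 1 left out, and averaging the probe sets of each gene.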

Additional observations from a re-analysis of the deposited data

How the results depend on the processing

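In all 17 alternatives 0 genes of the set passed the test (lowest limma adjusted p = 0.0524, for Igf2 without both replicates 1), and the median log2 change stayed above 0, from 0.25 to 0.51 leaving out 1 array and at 0.37 without both replicates 1. The cause was not tested for any change given here, and with 1 array left out the share of all genes without overlap and higher also grew, to between 9.46% and 14.1%. The number of genes without overlap and higher in knockout was 12 with median centring (2.97% of all genes) and 21 without both replicates 1 (20.7%), and ran from 7 to 20 leaving out 1 array; lower, it ran from 0 to 1 (Col6a2, without wild type replicate 2). At an unadjusted limma p under 0.05 the number was 15 with array weights (4.26% of all genes) and 13 without both replicates 1 (5.41%), against 2.44% of all genes as reported, and ran from 2 to 15 leaving out 1 array. Genes above 0 ran from 25 to 30 leaving out 1 array. Over all probe sets, lower calls were 1 without an intensity trend and 7 without both replicates 1, and 3 to 4 leaving out 1 array. Higher calls were 7 with the replicate block, 7 without both replicates 1, and 0 to 2 leaving out 1 array. Same-numbered arrays are paired by no label, and their deviations from group means correlated at 0.24, 0.054 and 0.0998. With the replicate block 0 genes of the set passed and the median was 0.35. One gene of the other lists, Kcnj13 of the choroid plexus list, passed with the replicate block (log2 change 0.77, limma adjusted p = 0.0174) and without both replicates 1 (0.69, limma adjusted p = 0.0358), so 1 list gene was called in each of these. For named genes 818 of 820 comparisons kept their side of the threshold. Apart from Ppp1r1a these genes had a limma adjusted p of 0.88 or more as reported, so keeping their side says little. Of the list medians, 234 of 237 moved by less than the spread between arrays. Median centring shifted the median of all genes to -0.02.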

Other observations

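Lists of cell types that the hippocampus holds beside fibroblasts gave these values, with 0 genes past the limma test in any of them. Oligodendrocyte and myelin markers had a median log2 change of -0.12, with 4 of 12 above 0. Without overlap between groups, 3 were below, beside 5.12% of all genes, and 0 were above, beside 5.34%. Fa2h, which hydroxylates myelin lipids, had a change of -0.50 (limma adjusted p = 0.884), Mag, a myelin adhesion protein, -0.22 and Mobp, a myelin structural protein, -0.20. Hippocampal neuron markers had a median of -0.08, with 5 of 12 above 0. Without overlap, 1 of these markers was higher and 1 lower, beside 5.34% and 5.12% of all genes. Camk2a and Neurod6, of lowest limma p in that list, had changes of -0.17 and -0.21. Astrocyte markers had a median of 0.06 over 12 genes and macrophage and border immune markers one of -0.03 over 7. Knockout replicate 1 was the lowest knockout array in 2 of the 12 and in 6 of the 7, beside 34.7% of all genes. Of the 2 tested red blood cell markers, Alas2 had a change of 0.92 and the other was below 0. In the endothelial list Cdh5 was dim and had a change of -1.20. In the choroid plexus list Cldn2, Kcnj13 and Slc4a5 had changes of 0.72, 0.77 and 0.80. Apart from Fa2h, the limma adjusted p of each gene named here was 0.988.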
